A study of Sus scrofa with 27 samples.

Results

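The genes described here are 9 regulators of cell death that are read as a sign of follicle health: BCL2, BCL2L1, MCL1, BAX, BAK1, BCL2L11, BBC3 and BID of the BCL2 family, and XIAP. They were taken by symbol, as 9 of the 35670 Ensembl identifiers counted in porcine mural granulosa cells (GCs), which form the inner lining of the follicle. All 9 were found, and 8 of them were among the 17467 identifiers that reached a mean count of 5 and were tested. BBC3 did not reach it. One RNA-seq library was made per sow, from 13 full-fed (FF) sows that received 6.5 kg of feed per day and 14 restricted (RES) sows that received 3.25 kg per day over the last 2 weeks of lactation. All sows were first-parity, wild-type Large White × Norwegian Landrace crosses (TN70), both groups received the same allowance after weaning, and ovaries were collected on day 2 post-weaning. The GCs were cut by laser capture microdissection from 1 follicle per sow, the largest healthy one in the right ovary. The RES sows were those with the highest and the FF sows those with the lowest loss of body weight of their feeding groups, so the comparison is between selected animals. Follicles whose GCs stained for a marker of apoptosis above a limit had been excluded as atretic, so the genes were compared between follicles already chosen as healthy. Library totals ran from 12299220 to 16021200 counts among the FF sows, with a median of 13490513, and from 12942198 to 18120922 among the RES sows, with a median of 15232600.

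Proteins of the BCL2 family decide whether the outer membrane of the mitochondrion is opened. BAX and BAK1 form the pores, BCL2, BCL2L1 (BCL-xL) and MCL1 hold them in check, and the BH3-only proteins BCL2L11 (BIM), BBC3 (PUMA) and BID tip the balance towards death by binding the guards or activating the pore formers. Once cytochrome c has left the mitochondrion, APAF1 and caspase 9 activate the executioner caspases, which XIAP inhibits. Apoptosis of GCs is the hallmark of atresia, the loss of follicles that would otherwise grow on to ovulation.

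The labelled cell type was checked against marker genes. In CPM (counts scaled to library size with TMM factors), the summed level of 8 GC markers, among them VCAN and INHBA, was 4944 to 8573 in FF and 5407 to 10368 in RES. None of the 8 was called between the groups, where 13.0% of all identifiers were called. Markers of other cells were present at lower sums, led by INSL3 and COL14A1 (theca), KDR and PECAM1 (endothelium), COL3A1 and DCN (stroma), RGS5 and ACTA2 (smooth muscle and pericytes), PTPRC and CD163 (immune), HBB and ALAS2 (erythroid) and GDF9 (oocyte). The 6 theca markers summed to 231 ± 97.1 CPM (SD) in the 13 FF libraries and 147 ± 65.5 in the 14 RES libraries, the 6 endothelial markers to 73.3 ± 14.6 and 59.1 ± 21.8, the 5 stroma markers to 1072 ± 350 and 863 ± 293, the 5 smooth muscle and pericyte markers to 308 ± 98.2 and 235 ± 112, the 10 immune markers to 15.8 ± 8.03 and 10.7 ± 6.29, the 3 erythroid markers to 12.1 ± 18.4 and 3.61 ± 3.37, and the 4 oocyte markers to 16.2 ± 3.62 and 14.8 ± 3.35. The erythroid sum in FF had a median of 6.42 and a highest value of 71.8 CPM, so 1 library raised its mean. Nearly all of the oocyte sum was GDF9, at 16.0 ± 3.64 CPM in FF and 14.7 ± 3.15 in RES. Each other oocyte marker had 0 counts in at least 22 of the 27 libraries, BMP15 in 24. Of the non-GC markers, CYP11A1, CDH5, CLDN5, RGS5 and HBB were called lower in RES. They were 1 of the 6 theca markers tested, 2 of the 6 endothelial, 1 of the 5 smooth muscle and pericyte and 1 of the 2 erythroid. None of the 5 stroma, 7 immune or 1 oocyte markers tested was called. Over all identifiers, 5.19% were called lower. The part of these markers in the results below was not tested, and in bulk samples fewer cells of a type and less RNA per cell cannot be told apart.

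Some libraries stood apart over the whole transcriptome. A value was marked when its log2 CPM lay at least 3 robust SDs (scaled from the median absolute deviation) from its group median, which held for 3.05% of all values. In FF sow 10, 15.6% of all identifiers were marked, in RES sow 3 9.15% and in RES sow 7 6.37%, against a median of 2.11% over the libraries. Libraries also fell into an upper (7 FF, 7 RES) and a lower (6 FF, 7 RES) group by the share of high-quality bases listed for them, and results are given within both. An FF sow was left out for its RNA integrity and no library is numbered FF sow 9, while the lowest RNA integrity number is listed for FF sow 10. Whether the listed values of FF sow 10 belong to its library is therefore uncertain, which touches its quality group and the fit with the RNA integrity number as a term.

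On the pig genome (Sscrofa11.1, RefSeq annotation) the genes are spread over 8 chromosomes. BCL2 lies at chr1:158337403-158518214, BCL2L1 at chr17:35366139-35415798, MCL1 at chr4:98562092-98567014 and XIAP at chrX:101399374-101440021. BAX lies at chr6:54222341-54228150, BBC3 at chr6:53037103-53046902, BAK1 at chr7:29808849-29815345, BCL2L11 at chr3:45156791-45202996 and BID at chr5:69849007-69874647. Overlap with other genes matters here because the counting command sets no strand option. Of the 2779 merged exon bases of BAK1, 1036 also lie in exons of LOC102162214 on the opposite strand, and of the 2006 of BID, 446 lie in exons of LOC110260761 on the opposite strand. For XIAP it was 21 bases, and 122 bases of BCL2L11 are shared with ACOXL on the same strand. Reads from such stretches cannot be told apart by strand, so the values of BAK1 and BID carry that limit. The overlaps are those of RefSeq, and whether the Ensembl annotation used for counting holds them was not checked. No exon of another RefSeq gene overlapped those of BCL2, BCL2L1, MCL1, BAX or BBC3.

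The 250 bases before the annotated gene start are shown for BID, 1 of the BH3-only regulators, and for BAX, a pore former. They are read 5′ to 3′ on the strand of the gene, at chr5:69874648-69874897 (minus strand) and chr6:54222091-54222340 (plus strand).
BID: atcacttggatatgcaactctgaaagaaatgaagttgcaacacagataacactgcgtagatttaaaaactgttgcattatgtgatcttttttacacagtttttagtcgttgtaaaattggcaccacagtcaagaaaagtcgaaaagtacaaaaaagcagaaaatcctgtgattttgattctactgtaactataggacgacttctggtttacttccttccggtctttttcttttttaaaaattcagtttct
BAX: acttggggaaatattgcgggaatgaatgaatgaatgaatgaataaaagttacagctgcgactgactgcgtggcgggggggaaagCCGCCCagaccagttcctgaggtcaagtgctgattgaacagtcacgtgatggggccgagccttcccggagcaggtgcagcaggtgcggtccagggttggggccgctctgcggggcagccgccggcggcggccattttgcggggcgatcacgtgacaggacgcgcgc
Capitals mark matches to the GC box GGGCGG on either strand, the one motif of 4 searched that these stretches hold. BAX has 1 match, starting 166 bases before the gene start, and BID has none. Of 19498 such stretches of protein-coding genes, 46.0% hold a GC box. The base composition differed more: G and C made up 33.2% of the bases for BID and 61.6% for BAX. The other motifs searched on both strands were E2F (TTTGGCGC, TTTCCCGC, TTTGCCGC or TTTCGCGC, in 2.82% of the stretches), the cell cycle element CHR (TTTGAA, 12.5%) and FOXO (GTAAACA, 2.27%). Of the other regulators whose stretches are reported here, XIAP had 1 E2F match, 45 bases before its start, and BCL2 had 1 CHR match. GC boxes numbered 6 for BCL2, 2 each for MCL1 and BCL2L11, 1 for BBC3 and 0 for BCL2L1 and XIAP. A match is a match of letters only.

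Compared per kilobase of merged RefSeq exons, the death regulators were expressed at very different levels. In FF GCs, MCL1 stood highest at 20.2 ± 4.21 CPM per kb (SD, n = 13), followed by XIAP at 13.3 ± 2.54 and BID at 9.86 ± 1.2. BAK1 followed at 1.22 ± 0.33, BAX at 0.50 ± 0.25, BCL2L1 at 0.40 ± 0.12, BCL2 at 0.26 ± 0.059, BCL2L11 at 0.11 ± 0.059 and BBC3 at 0.053 ± 0.047. The order was the same in RES GCs, from 20.1 ± 2.80 for MCL1 (SD, n = 14) to 0.044 ± 0.039 for BBC3. Neighbours were set apart where the gap between their means exceeded the larger SD. BAX and BCL2L1 did not differ by that measure in either group, nor did BCL2L11 and BBC3 in FF or XIAP and BID in RES, whereas the steps from BID to BAK1 and from BAK1 to BAX exceeded it in both groups. The lengths are those of RefSeq, while the reads were counted on Ensembl exons, so the levels are approximate. The order rests on these lengths too, which are 25894 bases for BCL2 and 833 for BAX. Without scaling to length, BCL2 stood above BAX in FF, at 6.75 ± 1.52 CPM against 0.41 ± 0.21.

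None of the 4 anti-death genes was called between the diets by edgeR, DESeq2 or voom, where edgeR called 13.0% of all identifiers, and in edgeR 0 of the 4 had an unadjusted p under 0.05. For MCL1, a short-lived guard that is made and degraded quickly, the lowest, median and highest CPM were 49.0, 78.5 and 104.9 in FF and 50.1, 81.4 and 97.9 in RES. The ranges nearly coincided, and the means were 79.9 ± 16.6 (SD, n = 13) and 79.3 ± 11.0 (SD, n = 14). On the log2 scale RES differed from FF by −0.011 (SE 0.10, 95% interval −0.22 to 0.20, adjusted p = 0.956 in the quasi-likelihood test of edgeR). The interval spans a fold of 0.86 to 1.15. BCL2, the founding guard, lay between 4.68 and 9.74 CPM in FF GCs, with a median of 6.21, and between 5.57 and 9.44 in RES (median 6.95). The ranges overlapped, although 11 of the 14 RES sows were above the FF median. Its log2 fold change came to 0.098 (SE 0.11, 95% interval −0.13 to 0.33, adjusted p = 0.608).

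BCL2L1, the guard BCL-xL, was low in all libraries, with 10 to 31 counts. It ranged over 0.80 to 2.13 CPM among FF sows (median 1.54) and over 0.69 to 1.88 among RES sows (median 1.42), a log2 difference of −0.087 (SE 0.17, 95% interval −0.43 to 0.25, adjusted p = 0.775). The groups overlapped almost fully. XIAP, which acts after the mitochondrion by binding caspases, ranged over 74.8 to 128 CPM among FF sows (median 87.3) and over 64.3 to 116 among RES sows (median 88.9). FF sows 2, 7 and 12 and RES sows 2 and 7 were the highest libraries, at 108 to 128 CPM. Its log2 fold change was −0.093 (SE 0.094, 95% interval −0.29 to 0.10, adjusted p = 0.553).

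Among the pore formers, BAK1 was higher in RES GCs and BAX was not called. BAK1 had 2.49 CPM at the lowest, 3.06 at the median and 4.88 at the highest in FF, and 2.87, 4.77 and 6.67 in RES. The groups overlapped, but 13 of the 14 RES sows were above the FF median, 7 were above the highest FF sow, and 6 of the 13 FF sows were below the lowest RES sow. FF sows 1, 4 and 11, at 4.72 to 4.88 CPM, lay at the level of the RES median. The means were 3.40 ± 0.92 (SD, n = 13) and 4.57 ± 1.07 (SD, n = 14), a fold of 1.34 (95% interval 1.097 to 1.64), which is 0.43 on the log2 scale (SE 0.14, unadjusted p = 0.0056, BH-adjusted p = 0.0462 in the quasi-likelihood test of edgeR). The counts behind these values were 28 to 98 per library. Over all 17467 identifiers tested, 13.0% were called and 7.77% were called higher in RES, so the 1 call among 8 genes stands near the background share.

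The size of the BAK1 difference was steady, while its call was not. Its log2 fold change stayed between 0.37 and 0.48 in the 27 fits that each left out 1 library, and between 0.37 and 0.46 in the 13 alternative settings. The adjusted p was under 0.05 in 9 of the 27 fits, from 0.0241 without RES sow 7 to 0.0784 without RES sow 13. The call was lost when FF sow 2, 3, 5, 6, 8, 10, 12, 13 or 14, or RES sow 1, 3, 5, 6, 8, 9, 11, 12 or 13 was left out. It was made in 6 of the 13 alternatives and not with upper-quartile factors, without a count filter, with named identifiers only, with the RNA integrity number or the sow number in the fit, or in either quality group alone, over an adjusted p of 0.014 to 0.462. Libraries of the upper quality group alone gave 0.44 (SE 0.20, adjusted p = 0.148), and those of the lower 0.41 (SE 0.22, adjusted p = 0.462).

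BAX had 1 to 14 counts per library, a depth at which a difference of the size seen for BAK1 was not detectable. In CPM it had 0.13, 0.36 and 0.96 at the lowest, median and highest in FF, and 0.076, 0.40 and 0.69 in RES. The highest value was that of FF sow 1 and the lowest that of RES sow 2. The log2 fold change came to −0.10 (SE 0.28, adjusted p = 0.851), and its 95% interval, −0.68 to 0.48, includes the 0.43 measured for BAK1. The difference between the responses of BAX and BAK1 was not tested.

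**Figure D1:**
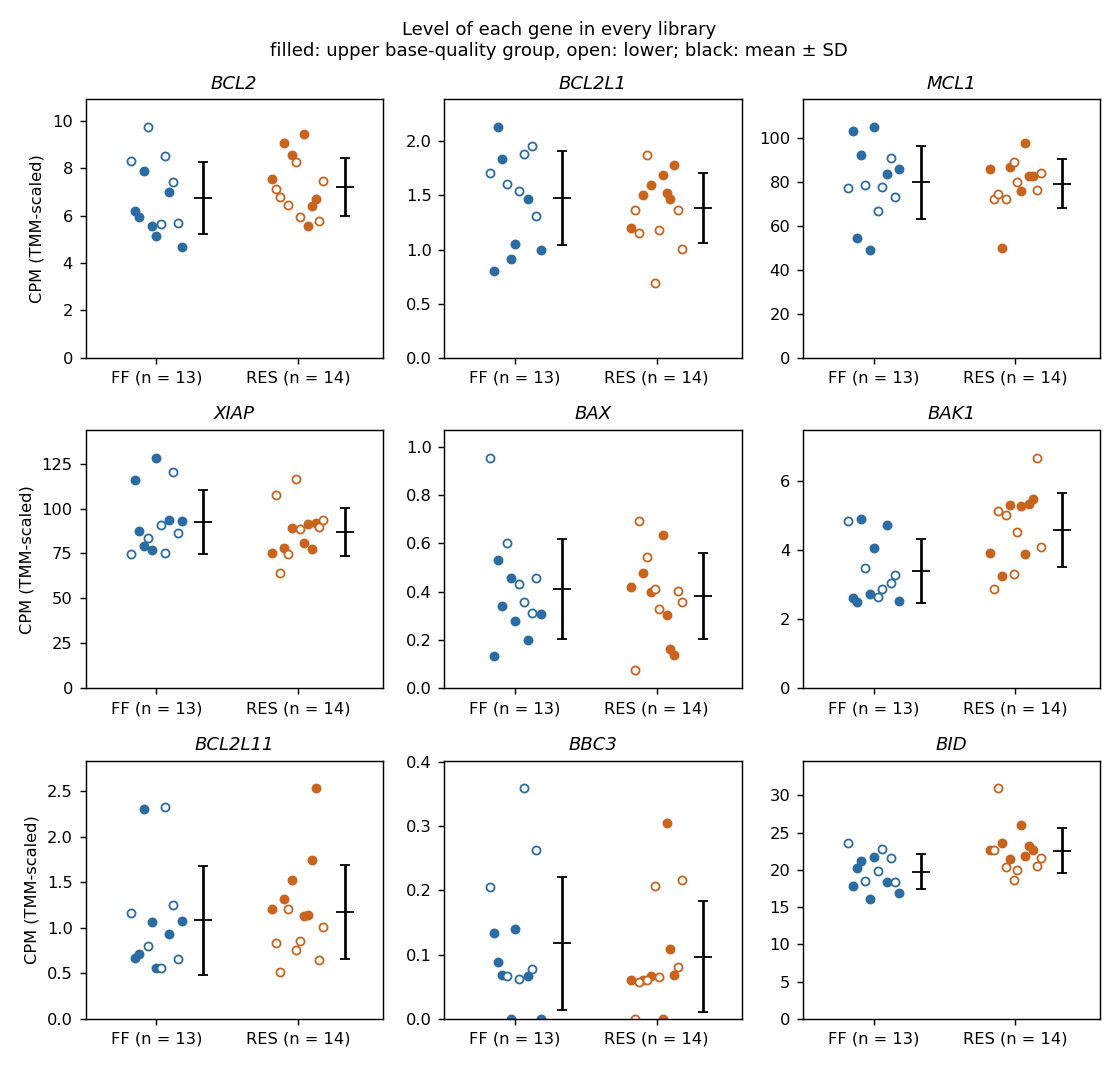
Level of each of the 9 genes in every library, in TMM-scaled CPM on linear axes that start at 0, for 13 FF (blue) and 14 RES (orange) sows; filled points are libraries of the upper base-quality group, open points those of the lower, and black marks show the mean ± SD. The RES points of BAK1 sit above most FF points, those of BID slightly so, and the other genes overlap.

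Of the 3 BH3-only genes among the regulators, BID was the one with an unadjusted p under 0.05. BID, which links death receptors to the mitochondrion once it is cut by caspase 8, had 16.0 CPM at the lowest, 19.9 at the median and 23.6 at the highest in FF, and 18.7, 22.2 and 30.9 in RES. As for BAK1, 13 of the 14 RES sows were above the FF median and 6 of the 13 FF sows were below the lowest RES sow. RES sow 3 was the highest library by a distance. The means were 19.8 ± 2.33 (SD, n = 13) and 22.6 ± 3.00 (SD, n = 14). The log2 fold change of 0.19 (SE 0.076, 95% interval 0.037 to 0.35) gave p = 0.017 before and 0.0887 after adjustment in edgeR's quasi-likelihood test, and was not called. The 95% interval corresponds to a fold of 1.03 to 1.27. BID was called with voom (0.18, adjusted p = 0.0453), without FF sow 10 (0.21, adjusted p = 0.0475) and without RES sow 7 (0.21, adjusted p = 0.0474), whereas without RES sow 3 it was 0.15 (adjusted p = 0.152).

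BCL2L11, which encodes BIM, ranged over 0.55 to 2.33 CPM among FF sows (median 0.93) and over 0.52 to 2.53 among RES sows (median 1.14). FF sows 4 and 10 and RES sow 12 were above 2 CPM and the other libraries were not. Its log2 fold change was 0.13 (SE 0.25, 95% interval −0.38 to 0.64, adjusted p = 0.781). BBC3, which encodes PUMA, had 0 to 4 counts per library and was at 0 in 4 libraries. With a mean of 1.52 counts it was not tested, and a difference in BBC3 was not detectable at this depth.

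**Figure D2:**
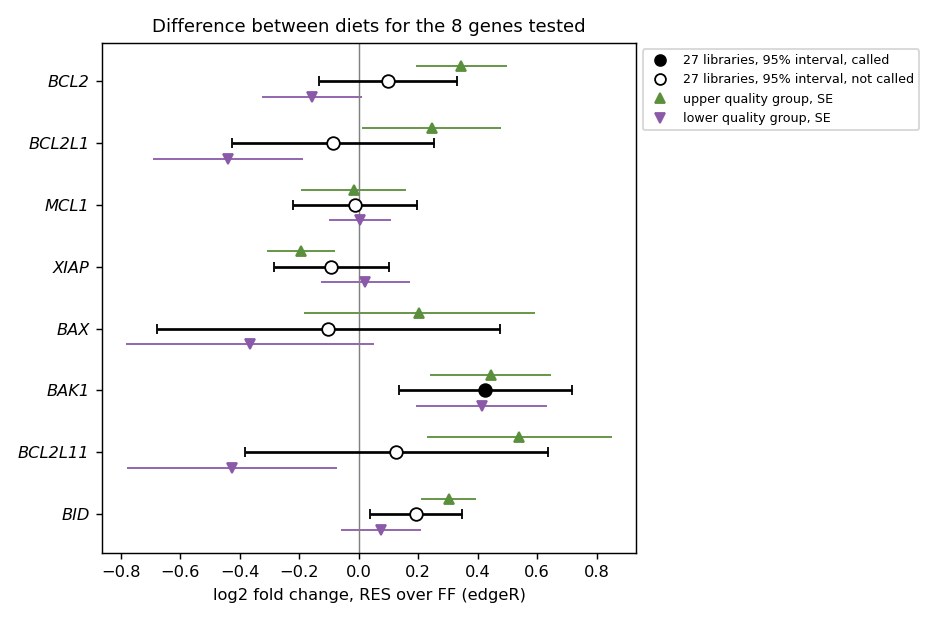
Log2 fold change, RES over FF, for the 8 genes tested; circles are the fit over 27 libraries with its 95% interval, filled where the gene was called, and triangles are the upper (up) and lower (down) quality group with their SE. BAK1 lies right of 0 in all 3 fits, at 0.43, 0.44 and 0.41, and the triangles of BCL2, BCL2L1, BAX and BCL2L11 lie on opposite sides of 0.

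Within the quality groups, which are parts of the same 27 libraries, BAK1 and BID kept their direction. The fold changes of the other 6 genes had opposite signs, several of them within their SE of 0. BCL2 had 0.34 (SE 0.15) with upper and −0.16 (SE 0.17) with lower quality. BCL2L1 had 0.25 (SE 0.23) and −0.44 (SE 0.25), BCL2L11 0.54 (SE 0.31) and −0.43 (SE 0.35), and BAX 0.20 (SE 0.39) and −0.36 (SE 0.42). XIAP had −0.19 (SE 0.11) and 0.023 (SE 0.15), BID 0.30 (SE 0.092) and 0.075 (SE 0.13), and MCL1 −0.016 (SE 0.18) and 0.0053 (SE 0.10). In the upper group BID was called (adjusted p = 0.039), against 14.3% of all identifiers there. In the lower group none of the 8 genes was called by edgeR, with 0 at an unadjusted p under 0.05 and 0 called by DESeq2 or voom, and of all identifiers 0% were called by edgeR (2162 at an unadjusted p under 0.05, 348 called by DESeq2 and 398 by voom). The difference between the quality groups itself, tested as an interaction of diet and quality group, was called for 0 of the 8 genes by edgeR and 0 by DESeq2. Unadjusted p under 0.05 in edgeR came for BCL2 (0.47, SE 0.22, unadjusted p = 0.0362, adjusted p = 0.427) and BCL2L1 (0.66, SE 0.32, unadjusted p = 0.0492, adjusted p = 0.452). Over all 17467 identifiers the interaction had an unadjusted p under 0.05 for 1915 in edgeR, and was called for 1 by edgeR and 71 by DESeq2.

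**Figure D3:**
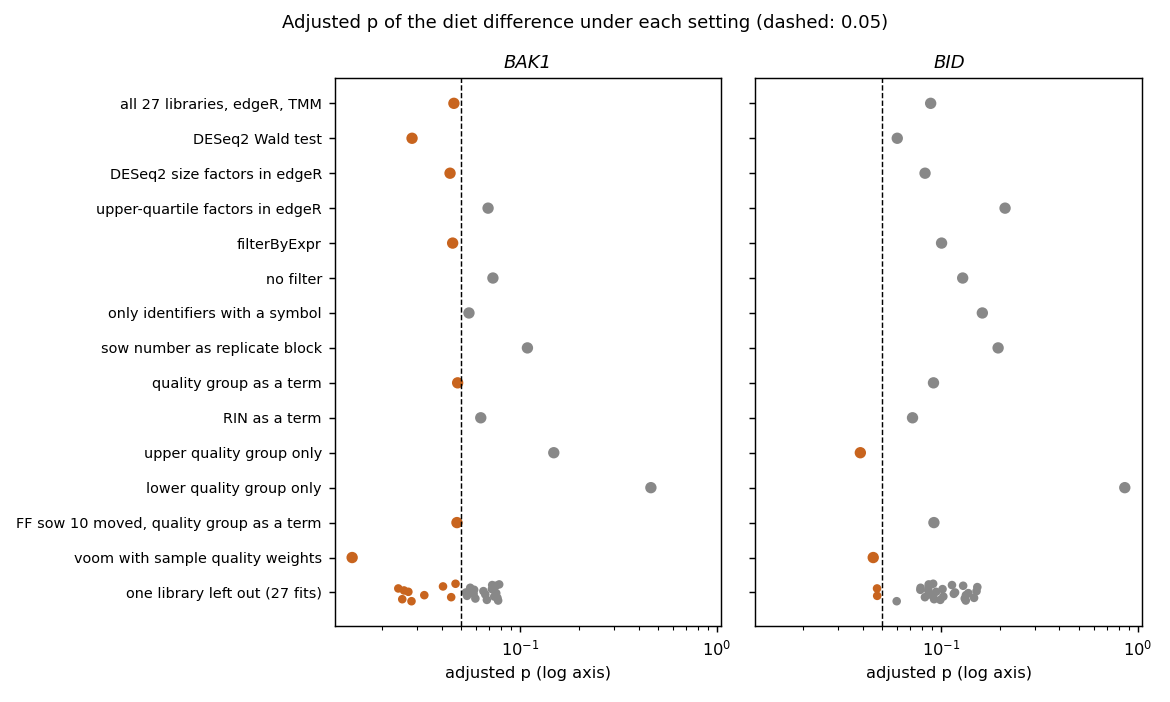
Adjusted p of the RES against FF difference of BAK1 (left) and BID (right) on a log axis under each setting and with each library left out in turn; orange points are under 0.05, the dashed line. BAK1 moves between 0.014 and 0.462 around the line, and BID lies above it in most settings.

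Joined into 1 balance per library, the pro-death genes stood slightly higher against the anti-death genes in RES, within the spread between sows. The balance was the mean log2 CPM of BAX, BAK1, BCL2L11 and BID minus that of BCL2, BCL2L1, MCL1 and XIAP, given as a description without a test. It was −3.18 at the lowest, −2.77 at the median and −2.27 at the highest in FF, and −3.14, −2.51 and −2.23 in RES. Of the 14 RES sows, 12 were above the FF median, and 1 was above the highest FF sow. The lowest values belonged to FF sow 2 and RES sow 2, and the highest to RES sow 3 and FF sow 1. The means were −2.72 ± 0.26 (SD, n = 13) and −2.55 ± 0.22 (SD, n = 14), a difference of 0.17, smaller than either SD. Libraries of upper quality alone gave a difference of 0.25, those of lower quality 0.095. Without XIAP, which is not of the BCL2 family, the difference was 0.15. The ratio often given for follicle health turned the other way: BAX minus BCL2 was −3.70 ± 0.50 in FF and −3.90 ± 0.54 in RES, a difference of −0.20, and BAX minus BCL2L1 gave −0.024, both resting on the few reads of BAX. With BAK1 in place of BAX the difference from BCL2 was −0.97 ± 0.35 in FF and −0.66 ± 0.46 in RES, and that from MCL1 −4.51 ± 0.38 and −4.10 ± 0.37.

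**Figure D4:**
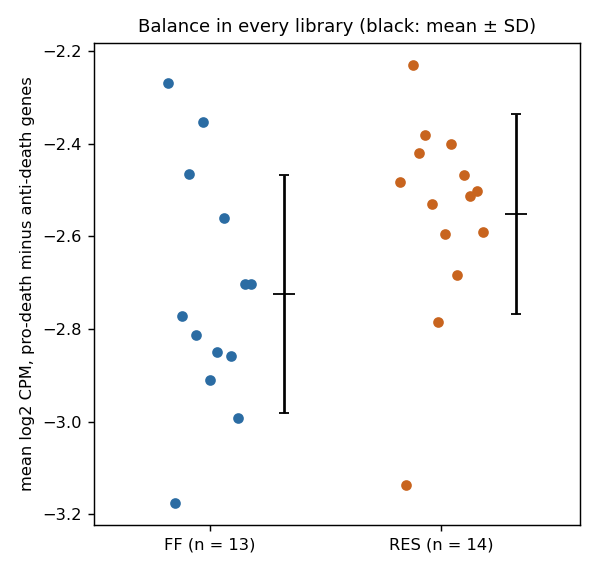
Balance of pro-death over anti-death genes in every library, in log2 CPM, for 13 FF (blue) and 14 RES (orange) sows, with the mean ± SD in black. The RES points centre 0.17 above the FF points, and the groups overlap over nearly their whole range.

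Few values of these genes stood apart in single sows. Of the 216 values of the 8 tested genes, 3 were marked as standing apart from their group (1.39%), against 3.05% of all values. These were MCL1 in RES sow 4, low at 50.1 CPM, BAX in RES sow 2, low with 1 count, and BID in RES sow 3, high at 30.9 CPM. The number of libraries with 2 or more marked genes was 0. FF sow 10, the library with the most marked identifiers, had 0 of the 8 genes marked. Libraries of RES sow 3 and RES sow 7 had 1 and 0.

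Between sows of the same diet, the genes with a mean count of at least 50 (BCL2, MCL1, XIAP, BAK1 and BID) were compared in pairs. The 20 Pearson correlations of log2 CPM, 10 in each group, ranged from −0.67 to 0.60. None passed 0.05 after Benjamini-Hochberg adjustment over the 20 (permutation test, two-sided, 100000 permutations), and 2 did before. MCL1 and XIAP had r = 0.60 in FF (n = 13 sows, permutation p = 0.0289, adjusted p = 0.289; Spearman's rho 0.58, permutation p = 0.0401, adjusted p = 0.449). It was 0.68 without the 2 sows farthest from the MCL1 median, and within the quality groups 0.70 (upper) and 0.51 (lower). In RES the same pair had r = 0.33 (permutation p = 0.243, adjusted p = 0.486; rho 0.39, permutation p = 0.169, adjusted p = 0.483), which stayed at 0.33 with the 2 farthest sows left out and was 0.48 (upper) and 0.54 (lower) by quality group. XIAP and BID had r = −0.67 in RES (n = 14 sows, permutation p = 0.00917, adjusted p = 0.183; rho −0.43, permutation p = 0.124, adjusted p = 0.449). Without the 2 farthest sows it was −0.20, so it rests on them, and within the quality groups it was −0.49 and −0.68. In FF this pair had r = −0.0079 (permutation p = 0.979, adjusted p = 0.979; rho −0.19, permutation p = 0.532, adjusted p = 0.759), which became −0.47 with the 2 farthest sows left out and was 0.31 (upper) and −0.18 (lower) by quality group. The differences between the diets were not tested. BAK1 and BID had r = 0.42 in FF (permutation p = 0.148, adjusted p = 0.471; rho 0.44, permutation p = 0.135, adjusted p = 0.449) and 0.16 in RES (permutation p = 0.589, adjusted p = 0.736; rho 0.10, permutation p = 0.727, adjusted p = 0.855). Without the 2 sows farthest from the BAK1 median these were 0.16 and 0.30, and within the quality groups 0.55 and 0.33 in FF and 0.11 and 0.16 in RES.

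The named genes most like each regulator were sought among 7981 genes with a mean count of at least 50, by Pearson's r of deviations from the group means over the 27 libraries, as a description. The closest were NUP50 (0.77), ODC1 (0.77) and UBE2M (0.77) for BAK1, and GATA6 (0.85), DDIT4 (0.83) and ELK4 (0.83) for MCL1. Among the genes like XIAP was CHIC1 (0.80). BCL2L1 was most like ESPL1 (0.79), FOXM1 (0.76) and MYBL2 (0.73), and BID most like JPT1 (0.73), CDK18 (0.72) and MYBL2 (0.72). BCL2 was most like ACTN1 (0.69), THOP1 (0.67) and CHFR (0.66), BAX most like ALAD (0.76), UROS (0.73) and ARRDC1 (0.68), and BCL2L11 most like YLPM1 (0.72), CD24 (0.68) and FOXN3 (0.67). These points share library, depth and quality group.

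The other genes of the pathway were taken from lists of 93 genes, of which 81 had a symbol and 75 were tested. Of these, 6 were called higher and 5 lower in RES, where 7.77% of all identifiers were called higher and 5.19% lower, so these counts stand near the background. The median log2 fold change was 0.0047 against −0.022 over all identifiers. In the rest of the BCL2 family nothing was called. The 2 other guards tested were BCL2L2, at −0.19 (SE 0.12, adjusted p = 0.283), and BCL2A1, at −0.32 (SE 0.32, adjusted p = 0.547). Of 3 pore-forming or BCL2-like genes tested, BCL2L13 had −0.072 (SE 0.093, adjusted p = 0.656) and BCL2L15 −0.46 (SE 0.26, adjusted p = 0.252). Of the 4 other BH3-only genes tested, PMAIP1, which encodes NOXA, a partner of MCL1, had 1.59 ± 1.22 CPM in FF and 2.68 ± 1.2 in RES, or 0.77 as a log2 fold change (SE 0.30, adjusted p = 0.0861). BMF had −0.71 (SE 0.32, adjusted p = 0.138). BNIP3L, a mitophagy receptor and the one with the most counts, had 0.0096 (SE 0.10, adjusted p = 0.962). Both PMAIP1 and BMF had an unadjusted p under 0.05.

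Of the 10 apoptosome and caspase genes tested, 3 were called, all higher in RES, against 7.77% of all identifiers called higher. CYCS, cytochrome c, which also carries electrons in respiration, had 83.3 ± 22.1 CPM in FF and 124 ± 33.5 in RES, or 0.58 as a log2 fold change (SE 0.15, adjusted p = 0.0114). DIABLO, which counters XIAP when released, had 18.7 ± 3.49 and 24.7 ± 5.29 (0.40, SE 0.12, adjusted p = 0.0237), and CASP2 15.2 ± 4.395 and 21.8 ± 6.18 (0.52, SE 0.15, adjusted p = 0.0206). For each of CYCS, DIABLO and CASP2, 11 or 12 of the 14 RES sows were above the FF median, and the call was kept in all 27 fits that left out 1 library. In the upper quality group alone CYCS was not called (adjusted p = 0.0602). APAF1, the scaffold of the apoptosome, had 43.7 ± 12.1 CPM in FF and 38.7 ± 5.29 in RES (−0.17, SE 0.12, adjusted p = 0.365), and CASP9, its caspase, 2.27 ± 0.34 and 2.25 ± 0.72 (−0.017, SE 0.15, adjusted p = 0.956). These are transcript levels, and cleavage of caspases was not measured in the files.

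Of 8 tested genes of the inhibitor of apoptosis family and other modulators of caspases or cell death, BIRC5, survivin, which also acts in mitosis, was the 1 called, against 7.77% of all identifiers called higher, at 8.58 ± 4.72 CPM in FF and 24.03 ± 8.74 in RES (log2 fold change 1.49, SE 0.28, adjusted p = 0.002, 13 of 14 RES sows above the FF median). BIRC6 and TMBIM6, those with the most counts, had −0.067 (SE 0.060, adjusted p = 0.485) and −0.044 (SE 0.090, adjusted p = 0.789). None of the 8 death receptor genes tested was called by edgeR, with 0 at an unadjusted p under 0.05, where 13.0% of all 17467 identifiers were called and 5034 had an unadjusted p under 0.05. TNFRSF1A, a TNF receptor, had 0.11 (SE 0.086, adjusted p = 0.434) and its adaptor TRADD −0.034 (SE 0.090, adjusted p = 0.841). FAS had 2.77 ± 1.38 CPM in FF and 3.53 ± 1.82 in RES (0.36, SE 0.25, adjusted p = 0.361), and CASP8, which cuts BID, 7.51 ± 1.54 and 8.03 ± 1.70 (0.096, SE 0.12, adjusted p = 0.64).

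The background shares of 7.77% higher and 5.19% lower hold for the single calls in this list and the following ones too. Of 8 genes upstream of the BH3-only genes, E2F1 was called higher (1.13, SE 0.29, adjusted p = 0.0105) and DDIT3, the stress factor CHOP, lower (−0.43, SE 0.13, adjusted p = 0.0323). E2F1 was called in all 27 fits that left out 1 library and DDIT3 in 22. FOXO1, which drives BCL2L11 in several cell types, had 549 ± 162 CPM in FF and 424 ± 124 in RES (−0.37, SE 0.17, adjusted p = 0.136), with 1 of the 14 RES sows above the FF median. MDM2 had 0.069 (SE 0.076, adjusted p = 0.585). Of 7 partners and turnover factors of MCL1 and BAK1, VDAC1, a channel of the outer mitochondrial membrane, was called higher (0.33, SE 0.11, adjusted p = 0.0411), in 12 of the 27 fits that left out 1 library. The MCL1 ubiquitin ligase HUWE1 and the deubiquitinase USP9X had 0.095 (SE 0.058, adjusted p = 0.283) and 0.028 (SE 0.075, adjusted p = 0.841).

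Of 12 genes that have been linked to atresia or GC stress, 3 were called, all lower in RES, against 5.19% of all identifiers called lower. IGFBP2, an IGF-binding protein, had 15.9 ± 5.99 CPM in FF and 8.04 ± 3.94 in RES (−0.98, SE 0.22, adjusted p = 0.0047), and 0 of the 14 RES sows were above the FF median. The p53 targets TP53INP1, at 46.0 ± 9.14 and 28.01 ± 12.2 CPM (−0.72, SE 0.19, adjusted p = 0.0143), and SESN1, at 40.04 ± 12.1 and 28.1 ± 8.75 (−0.51, SE 0.16, adjusted p = 0.0313), followed. With 1 library left out, IGFBP2 and TP53INP1 were called in all 27 fits and SESN1 in 21. IGFBP5 and CLU lay on the other side, at 0.73 (SE 0.34, adjusted p = 0.154) and 0.48 (SE 0.26, adjusted p = 0.226), and TXNIP, which had the most counts, at −0.18 (SE 0.24, adjusted p = 0.657). Of 13 genes linked to healthy growing follicles, GJA1, the gap junction protein of GCs, was called lower (−0.54, SE 0.18, adjusted p = 0.0442), in 12 of the 27 fits that left out 1 library. INHBB, an inhibin and activin subunit, had 322 ± 214 CPM in FF and 530 ± 199 in RES (0.72, SE 0.27, adjusted p = 0.0702), with 13 of the 14 RES sows above the FF median, and ESR2, an oestrogen receptor, had 0.29 (SE 0.14, adjusted p = 0.161). LHCGR, the LH receptor, had 1074 ± 484 CPM in FF and 659 ± 459 in RES (−0.71, SE 0.35, adjusted p = 0.175), and INHBA 837 ± 209 and 969 ± 407 (0.21, SE 0.19, adjusted p = 0.498). All 11 genes called in these lists had the same direction in both quality groups. The groups are parts of the 27 libraries in which the genes were called, so this is no independent check. In the upper group alone 8 of them were called by edgeR, and CYCS, DDIT3 (adjusted p = 0.123) and VDAC1 (adjusted p = 0.0831) were not. In the lower group none was called by edgeR (9 of the 75 at an unadjusted p under 0.05, 2 called by DESeq2 and 1 by voom).

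**Figure D5:**
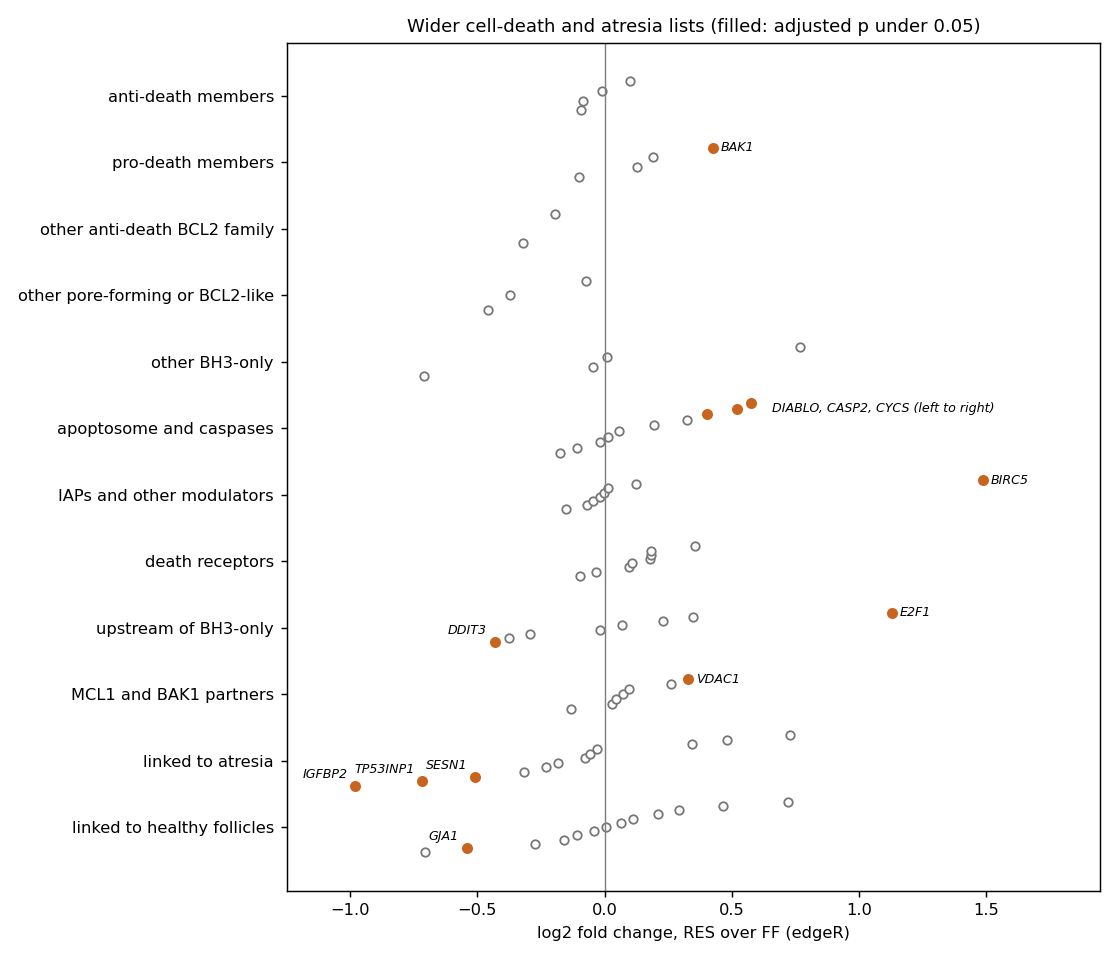
Log2 fold change, RES over FF, of the tested genes by list, 1 point per gene, filled and named where the adjusted p was under 0.05. The filled points of the apoptosome and caspase list lie right of 0, from 0.40 to 0.58, and those of the atresia list left of 0, from −0.98 to −0.51.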

How the data were processed

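Per the labels, the file headers and the study's methods, the authors removed rRNA, prepared dUTP-stranded libraries with UMIs, cleaned reads with SOAPnuke, aligned them with HISAT2 2.2.1 to Sscrofa11.1, kept unique alignments (SAMtools 1.16.1), removed PCR copies (UMI-tools 1.1.4) and counted read pairs on exons with featureCounts 1.6.2 and Ensembl release 110. The deposited files hold integer counts per gene for each sow, without normalization.

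Identifiers with mean counts of 5 or more (17467) were fitted with edgeR 4.0.16 (TMM, quasi-likelihood F test, R 4.3.3), with Benjamini-Hochberg adjustment over all of them calling those with adjusted p below 0.05. SE is the size of the log2 fold change over the root of F, and log2 CPM used a prior count of 2. Symbols came from a table of identifiers, and positions and sequences from RefSeq. Alternatives were DESeq2 1.42.0, other scalings and filters, named identifiers only, covariates, the quality groups, voom with sample weights (limma 3.58.1), and leaving out each library. Correlations and figures used Python 3.11.15, numpy 2.4.6 and matplotlib 3.10.9. The fits were tried on simulated counts with known changes, and the correlation test on simulated pairs of values. The simulated data held no quality groups and no libraries made to stand apart, so they do not show how the tests fare with those.

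The genes and lists were chosen with earlier results of these data known. Named were the 9 genes, the called genes of each list (the 4 with the largest change if more) and its 2 genes with the most counts, and the 3 genes most like each regulator. CASP8, CASP9, BMF, FAS, IGFBP5, CLU, INHBB, ESR2, LHCGR and the called markers were named outside that rule, after their values were seen. CYP19A1 and FOXL2 were not analysed here, and some genes of the lists, some of the genes most like a regulator and 1 upstream stretch are not reported here. Each library is 1 follicle of 1 sow, so the errors cover the spread between sows.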

Additional observations from a re-analysis of the deposited data

How the results depend on the processing

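With all 27 libraries, 2263 identifiers were called, 60.0% of them higher in RES, and with upper-quartile factors, which moved the median log2 fold change of all identifiers from −0.022 to −0.077, 47.3% of 2228. The count was 4187 with voom and 0 in the lower quality group, and 1592 (without RES sow 1) to 3485 (without RES sow 7) when single libraries were left out. Of the 8 genes, the number called was 1, 2 with voom, and 0 with upper-quartile factors, without a count filter, with named identifiers only, with RIN as a term and in the lower quality group, and it was 0 to 2 when single libraries were left out. In the wider lists 11 were called, 18 with voom, 0 in the lower quality group, and 7 (without RES sow 1 or 11) to 16 (without FF sow 10) when single libraries were left out. The cause of these shifts was not tested.

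Of the 11 genes called in the wider lists, GJA1 was not called with quality group as a term, GJA1 and VDAC1 with RIN as a term, VDAC1 with upper-quartile factors, DDIT3, VDAC1 and GJA1 without a count filter, and DDIT3, SESN1 and GJA1 with the sow number as a replicate block. The balance difference of 0.17 became −0.20 for BAX minus BCL2 alone, −0.024 for BAX minus BCL2L1 alone and 0.26 from summed CPM, and was 0.14 (without FF sow 2) to 0.22 (without RES sow 2) when single libraries were left out. Directions turned as follows, none of them called: MCL1 at 0.0015 with the sow number as a replicate block, 0.0053 in the lower quality group, 0.042 with voom and −0.058 to 0.036 with single libraries left out; BCL2L1 at 0.25 and BAX at 0.20 in the upper quality group; BAX at −0.20 to 0.066 and BCL2L11 at −0.0074 to 0.27 with single libraries left out; and BCL2 at −0.16, XIAP at 0.023 and BCL2L11 at −0.43 in the lower quality group. Sow numbers did not pair the libraries: over 13 pairs r ran from −0.18 to 0.26, 1 was over 0.1 and 0 FF libraries correlated best with their own number. With the number as a replicate block, 1514 identifiers and 0 of the 8 genes were called, and BAK1 had 0.41 (adjusted p = 0.109). The counts of BAX, BBC3 and BCL2L11 limit what can be seen of them.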
